A study of Ovis aries with 15 samples.

Results

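The genes described here are the members of the KEGG calcium signaling pathway that were expressed in the sheep kidney. They were chosen by annotation and level. Of 25592 genes in the deposited table, 349 carried the KEGG entry for calcium signaling, 339 were left after genes shared with the complement entry, mitochondrial carriers and 7 vascular, hormone or growth factor genes had been set aside, and 129 of these reached an FPKM of 1 in 5 or more of the 15 libraries. FPKM counts sequenced fragments per transcript length and library depth, so that it can be compared between genes. The FPKM values therefore chose the members, and the levels given below are a description. The margin of that choice was narrow for a few receptors. HTR6 and PTGER1 reached the minimum in 5 libraries and were kept, whereas CHRM1 reached it in 4 and CACNA1D and PTAFR in 3 and were not. In no member did the libraries at or above the minimum all come from 1 group, and 99 members were at or above it in all 14 libraries compared.

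The libraries came from kidneys of 4-month-old male sheep, crosses of Dorper with Small-tailed Han, all fed a total mixed ration for 21 d. CON sheep ate the ration alone. AFB1 sheep ate it with the mold toxin aflatoxin B1 added at 500 µg/kg, and AFB1_CUR sheep with that dose of toxin plus the plant polyphenol curcumin at 800 mg/kg, both on a dry matter basis. Of the 6 sheep in each group, 5 were sequenced, 1 library per sheep, with 50255295 to 68747047 counted reads per library. No group analysed here received curcumin without the toxin.

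Hormone and transmitter receptors that couple to Gq proteins switch on phospholipase C, which releases inositol trisphosphate, and this opens calcium channels of the endoplasmic reticulum. Channels of the plasma membrane, including the ORAI pores that STIM proteins open when the store runs down, let calcium in from outside. Calmodulin then carries the signal to kinases, to the phosphatase calcineurin and to nitric oxide synthases, while ATP-driven pumps and the sodium/calcium exchanger bring the level back down. In the kidney the same route serves the contraction of arterioles and mesangial cells, the response of tubules to vasoactive hormones, and the handling of filtered calcium.

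The label fitted most members but not all of them. By symbol or by the protein named in the deposited description, 96 of the 129 were components of calcium signaling. A further 16 were chains of antigen receptors, 12 of immunoglobulins and 4 of the T cell receptor, which signal to calcium in lymphocytes and sit in the same KEGG entry. The remaining 17 were proteins of another kind, such as the mitochondrial proteins CHCHD2 and CHCHD10, the adaptors SHB, SHE and SHF and the tubulin-trimming enzymes AGBL5 and AGTPBP1. Of these 17, 10 had been given the same KEGG ortholog as a member with a calcium role. CFAP119, for example, carries the ortholog of PHKG2 and overlaps that gene on chromosome 24 from 27392045 to 27396164. The 3 sets are described separately below.

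One library did not have a kidney profile. In AFB1 replicate 1 the summed FPKM of 14 hepatocyte markers was 54035, against 102 to 478 in the other libraries, and that of 9 genes of the loop of Henle and distal nephron was 0.849, against 805 to 2779. Of the 96 members with a calcium role, 62 were lower in that library than in each of the other 14, and 8 were higher. Their FPKM summed to 808 there and to 1172 to 1392 elsewhere. The groups were therefore compared without it, over 5 CON, 4 AFB1 and 5 AFB1_CUR libraries. AFB1 replicate 2 and AFB1_CUR replicate 2 also stood apart, in immune genes: 6 lymphocyte markers summed to 107 and 230.4 FPKM there and to 8.69 to 36.3 in the other 12 libraries. Because these are whole tissue samples, fewer cells of a type and less RNA per cell cannot be told apart.

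The members spanned a wide range of levels, as the plot of mean FPKM by role shows. Among the highest with a calcium role were VDAC2, a channel of the outer mitochondrial membrane, at a mean of 151 FPKM over the 14 libraries, and GNAS, which encodes the alpha subunit of Gs, at 114. The lowest was the serotonin receptor HTR6 at 0.935. The median over the 96 was 4.23 FPKM, against 6.60 over all 13193 genes tested. Among the calcium roles, the calmodulins and the mitochondrial channels had the highest medians, at 32.3 and 24.9 FPKM. The lowest were those of the store and muscle calcium-binding proteins, at 1.24, and of the nitric oxide synthases and phosphodiesterases, at 1.57. G protein-coupled receptors had a median of 2.83 and receptor tyrosine kinases one of 10.7.

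**Figure D1:**
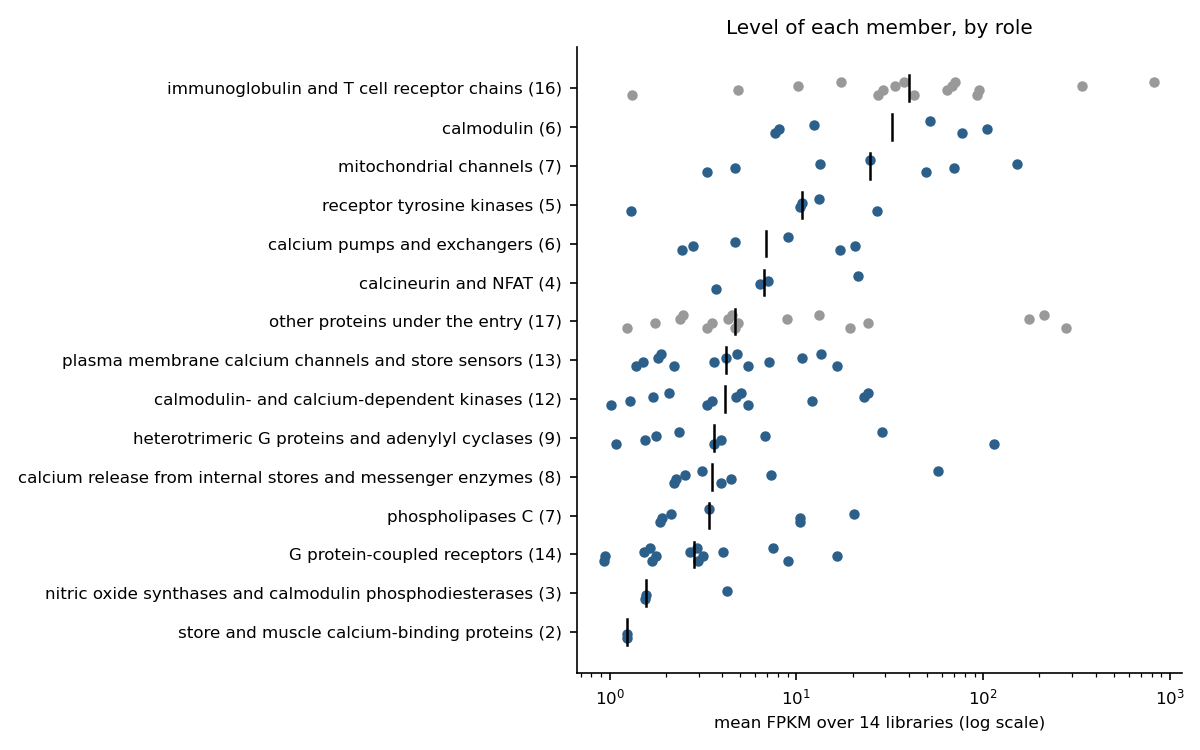
Mean FPKM over 14 libraries (x axis, log scale) of each of the 129 members, one point per gene, by role (y axis, number of genes in brackets). Blue points have a calcium signaling role, grey points are antigen receptor chains or other proteins, and black bars are medians; VDAC2 at 151 is the highest blue point and HTR6 at 0.935 the lowest.

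Among the G protein-coupled receptors, 14 members passed the filter and 28 listed receptors did not. The receptors AGTR1, CASR and PTGER3 had been set aside by name, whatever their level, and are not ranked here. ADORA2B, the low-affinity adenosine receptor, led the 14 with a mean of 16.5 FPKM. The endothelin B receptor EDNRB had 7.49 and the vasopressin V1a receptor AVPR1A 4.05. The chemokine receptor CXCR4 had a mean of 9.03, but 39.3 in AFB1_CUR replicate 2, 15.1 in AFB1 replicate 2 and 2.94 to 8.99 in the other 12 libraries, so it is not ranked against EDNRB. In the CON libraries ADORA2B ranged from 10.9 to 20.8 FPKM. EDNRB ranged there from 3.85 to 7.79 and did not overlap ADORA2B. The dopamine receptors DRD1 and DRD5, the oxytocin receptor OXTR and the alpha-1A adrenergic receptor ADRA1A were among the 28 below the minimum.

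The next step of the route was carried by a few highly expressed genes. GNA11, a Gq-class alpha subunit, had a mean of 28.7 FPKM and GNAQ one of 3.93. Of the phospholipases C, PLCG1, the form activated by receptor tyrosine kinases, stood highest at 20.3, ahead of PLCB3 at 10.5, a form that Gq activates, and PLCD1 at 10.4. PLCB1 and PLCB4 were below the minimum. Of the 5 receptor tyrosine kinases kept as members, a class from which the rule had set others aside, ERBB2 was highest at 27.1 and ERBB3 next at 13.2.

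Release from the store rested on the 3 inositol trisphosphate receptors, with means of 4.48 FPKM for ITPR3, 3.94 for ITPR2 and 2.52 for ITPR1. The 3 ryanodine receptors RYR1, RYR2 and RYR3, which serve the same purpose in muscle and nerve, were below the minimum. The kinases that use up inositol trisphosphate were led by ITPKC at 7.35, and SPHK2, which makes sphingosine 1-phosphate, was the highest of this group at 57.4.

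Entry through the plasma membrane was led by P2RX4, an ATP-gated cation channel, at 16.6 FPKM, by CACNA1I, a T-type voltage-gated channel, at 13.6, and by the store sensor STIM1 at 10.8. The second sensor STIM2 had a mean of 4.20. A gene that the deposited description names as ORAI1, LOC101102013, had a mean of 7.15, ORAI3 one of 5.54 and ORAI2 one of 1.89. The L-type channel genes CACNA1C, CACNA1D, CACNA1F and CACNA1S were all below the minimum. CACNA1I varied more than most, from 4.47 in AFB1_CUR replicate 5 to 23.0 in AFB1 replicate 3.

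Clearance rested on the endoplasmic reticulum pump ATP2A2, with a mean of 20.5 FPKM, and on the sodium/calcium exchanger SLC8A1 with 17.1. The plasma membrane pumps were lower, from 2.43 for ATP2B4 to 4.67 for ATP2B1. ATP2A1, the pump of fast skeletal muscle, PLN, which restrains ATP2A2 in the heart, and the exchangers SLC8A2 and SLC8A3 of nerve and muscle were below the minimum.

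Of the genes that read the signal, the calmodulin genes CALM3 and CALM2 had means of 76.8 and 52.2 FPKM, and 2 loci described as calmodulin, LOC105614854 and LOC121820456, had 12.5 and 7.67. How reads shared by these near-identical genes were counted is not given in the sources used here, so the division among them is uncertain. The calcineurin regulatory subunit PPP3R1 had 21.4 and its catalytic subunits PPP3CC, PPP3CB and PPP3CA had 7.09, 6.41 and 3.71. MYLK, the myosin light chain kinase of smooth muscle, led the kinases at 24.2, and PHKG2, a catalytic subunit of phosphorylase kinase, followed at 23.1. In mitochondria VDAC3 had 69.7, VDAC1 49.2 and the calcium uniporter pore MCU 13.4. The endothelial nitric oxide synthase NOS3 had 4.26 and the calmodulin-dependent phosphodiesterase PDE1B had 1.57. TNNC1, the troponin C of slow and cardiac muscle, had 1.24 and scattered widely, from 0.105 to 3.09.

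Spread over the 14 libraries, taken as the SD of log2(FPKM + 1), had a median of 0.27 over the 96 members with a calcium role and of 0.23 over all genes tested. It was widest for CXCR4 at 0.86, CACNA1I at 0.64, PTK2B at 0.61, TNNC1 at 0.59 and the calmodulin locus LOC105614854 at 0.58. It was narrowest for PRKCA at 0.09, GNA11 at 0.10 and PRKACA at 0.11. The antigen receptor chains had a median of 1.88. This scale understates the change of low genes, so these spreads also depend on level.

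The first comparison asked which members differed in the kidneys of sheep fed the toxin. Between AFB1 and CON, 14 of the 129 members were called in edgeR's quasi-likelihood test (10.9%), where 1.75% of all genes tested were. Without AFB1 replicate 2 the count was 6. A call required a fold change beyond 1.5 together with an unadjusted p below 0.05. Of the 96 members with a calcium role 5 were called (5.21%), 2 higher and 3 lower in AFB1, beside 0.652% and 1.1% of all genes tested. With 1 library left out this count ran from 4 to 9, with 9 without AFB1 replicate 5 and 8 without CON replicate 2. The others were 8 immunoglobulin chains, all higher in AFB1, and the adaptor SHF. After Benjamini-Hochberg adjustment over all 13193 genes, 0 members passed in edgeR's quasi-likelihood test, and the smallest adjusted p of a member was 0.957. Before adjustment 18 members had a p under 0.05, as did 5.03% of all genes tested. DESeq2 and limma on log2(FPKM + 1) also called 0 members after adjustment. Each call below is thus a screening call.

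ADRB1, the beta-1 adrenergic receptor, is the receptor through which the sympathetic nerves act on the renin-secreting cells. It lies on chromosome 22 from 34062671 to 34065419 in the sheep assembly ARS-UI_Ramb_v3.0. In the CON libraries its FPKM was 1.0, 2.14, 1.30, 1.45 and 1.25, in replicate order. In AFB1 replicates 2 to 5 it was 2.06, 3.76, 3.78 and 1.14. AFB1_CUR gave 1.71, 1.11, 1.78, 0.911 and 1.58. The values of AFB1 replicates 3 and 4 lay above all others, while replicates 2 and 5 lay within the CON range, so that the groups overlapped. The fitted log2 fold change was 0.90 (SE 0.33) between AFB1 and CON, with an unadjusted p of 0.0174 in edgeR's quasi-likelihood test. Without AFB1 replicate 4 the log2 fold change against CON was 0.67 and without either AFB1 replicate 3 or 4 the call was lost. In limma on log2(FPKM + 1), a scale that understates the change of low genes, it was 0.54, under the fold threshold.

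PTGFR encodes the prostaglandin F receptor, which couples to Gq, and is found on chromosome 1 (54941051 to 55005153). Its FPKM was 1.48, 3.01, 3.03, 2.03 and 1.78 in CON and 4.08, 4.17, 4.68 and 2.57 in AFB1. In AFB1_CUR it was 2.03, 2.03, 3.86, 2.72 and 3.79. All AFB1 libraries but replicate 5 were above every CON library. The log2 fold change between AFB1 and CON was 0.77 (SE 0.26, edgeR unadjusted p = 0.0113), and it kept its call without any one library. It lost it in limma on log2(FPKM + 1), at 0.58, and with the liver-like library put back, at 0.45.

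CHRM3, the M3 muscarinic acetylcholine receptor, also couples to Gq and lies on chromosome 25 from 11500072 to 12063728. It had 1.44, 2.28, 2.74, 1.13 and 1.47 FPKM in CON and 1.32, 1.16, 0.979 and 1.07 in AFB1. The AFB1 libraries were close together, with a mean of 1.13 ± 0.143 (SD, n = 4), and the CON libraries were spread more widely, with 1.81 ± 0.67 (SD, n = 5). The log2 fold change was -0.68 (SE 0.25, edgeR unadjusted p = 0.0174). Without CON replicate 3, the highest of the CON libraries, it was -0.47 and the call was lost, as it was in limma at both pseudocounts and with the liver-like library put back.

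PLCD3, a phospholipase C of the delta class, is encoded on chromosome 11 (44520943 to 44541822). It had 2.61, 1.98, 2.19, 1.66 and 1.67 FPKM in CON and 1.41, 1.78, 1.29 and 0.709 in AFB1. Only AFB1 replicate 3 reached into the CON range. The log2 fold change was -0.66 (SE 0.25, edgeR unadjusted p = 0.0187), and the call was lost without CON replicate 1 or AFB1 replicate 5, in limma on log2(FPKM + 1) and with sample quality weights. PLCD1, its relative, was lower in AFB1 by less, with a mean of 8.85 ± 1.40 FPKM (SD, n = 4) against 10.8 ± 1.43 (SD, n = 5). Its log2 fold change of -0.30 (edgeR unadjusted p = 0.0137) missed the fold threshold.

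The largest difference of a member with a calcium role was that of LOC121817879, described in the file as a T-type calcium channel subunit alpha-1H-like gene. It had 8.68, 5.47, 4.36, 3.93 and 2.96 FPKM in CON, 3.70, 3.24, 1.80 and 1.56 in AFB1 and 2.44, 2.43, 3.93, 2.06 and 3.93 in AFB1_CUR. The CON libraries were the higher ones, with an overlap at their lower end. The log2 fold change between AFB1 and CON was -1.01 (SE 0.32, edgeR unadjusted p = 0.0075), and it was called in each of the 13 alternatives and 14 leave-one-out fits. This locus lies on chromosome 24 from 1507510 to 1518856 on the minus strand, within CACNA1H, which spans 1463801 to 1520334 on the plus strand. Whether counting used strand is not given in the sources used here, and if it did not, reads of the 2 genes cannot be told apart. CACNA1H itself had a log2 fold change of -0.27 (SE 0.18), which did not pass the test.

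**Figure D2:**
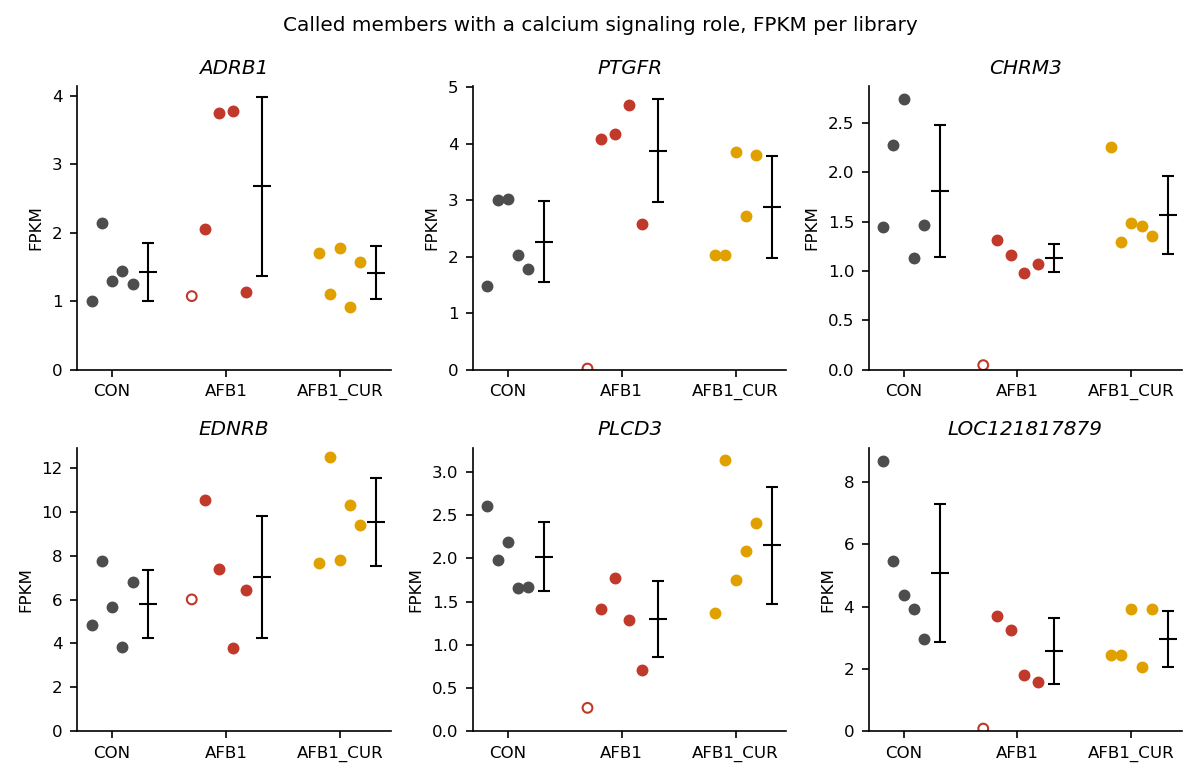
FPKM (y axis, linear from 0) of the 6 members with a calcium role called in any comparison, by group (x axis). Each filled point is 1 library, black bars give mean and SD over 5 CON, 4 AFB1 and 5 AFB1_CUR libraries, and the open circle is AFB1 replicate 1, the liver-like library, which entered no mean. ADRB1 in AFB1 runs from 1.14 to 3.78 FPKM, and EDNRB in AFB1_CUR from 7.68 to 12.5.

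Of all 129 members, 2 had AFB1 libraries that did not overlap the CON libraries, and both were lower in AFB1. That share is near the 1.54% of all genes tested. One was PHKG1, the muscle-type catalytic subunit of phosphorylase kinase, named here after its values were seen. It had 4.23, 4.15, 4.26, 3.98 and 3.68 FPKM in CON and 2.81, 3.57, 3.16 and 2.33 in AFB1, and in AFB1_CUR it ran from 2.95 to 4.08. Its log2 fold change of -0.46 (SE 0.14, edgeR unadjusted p = 0.0051) missed the fold threshold. The other was SHF, an SH2 adaptor that KEGG places under this entry although it is not a calcium signaling protein, with a log2 fold change of -0.59 (SE 0.25) that kept its call in 10 of 14 leave-one-out fits and 7 of 13 alternatives. The call was lost without CON replicate 1 or 2 and without AFB1 replicate 2 or 4. SHF had 3.06, 2.80, 2.21, 2.30 and 2.22 FPKM in CON and 1.44, 1.91, 1.45 and 1.84 in AFB1. In the liver-like library it had 8.46, and with that library put back its log2 fold change was 0.69, the opposite sign. The store sensor STIM2 was higher in AFB1, at 5.51, 5.73, 3.34 and 4.35 FPKM against 2.72 to 3.93 in CON, with a log2 fold change of 0.49 that also missed the fold threshold.

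The other roles gave no call in this comparison. The calmodulins, the calcineurin subunits, the pumps and exchangers, the inositol trisphosphate receptors and the mitochondrial channels had log2 fold changes between -0.20 and 0.35. For the rest, role medians were -0.22 for the receptor tyrosine kinases, 0.06 for the kinases and 0.18 for the G proteins and adenylyl cyclases. They were 0.05 for the whole store-release role, 0.01 for the nitric oxide synthases and phosphodiesterases and 0.17 for the store and muscle calcium-binding proteins. Over the 96 members with a calcium role the median log2 fold change was 0.07 and 62 estimates were above 0, beside a median of 0.02 over all genes tested. Without CON replicate 5 the median of the 96 was 0.019 with 54 above 0, and without AFB1 replicate 2 it was 0.021 with 53. Without these libraries and AFB1_CUR replicate 2 together it was -0.014 with 44, so its sign rests on them. In 84 of the 96 the estimate was smaller than 0.5 in either direction. A list of 34 other calcium-handling genes outside the entry, such as the calcineurin regulators RCAN1 to RCAN3, the uniporter regulator MICU3, calreticulin and the S100 proteins, gave a similar picture. Of these, 30 were tested and edgeR's quasi-likelihood test called 0 in each of the 3 comparisons, with 1 at an unadjusted p under 0.05 in each and 0 called by DESeq2 or limma. The 1 gene between AFB1 and CON was MICU3, at a log2 fold change of 0.53 (SE 0.23), and in both comparisons of AFB1_CUR it was the actin-binding caldesmon CALD1, at 0.34 (SE 0.15) against AFB1 and 0.32 (SE 0.14) against CON.

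The second comparison asked which members differed when curcumin was added to the toxin. It shares the 4 AFB1 libraries with the first, so the 2 are not independent. Between AFB1_CUR and AFB1, 4 of the 129 members were called (3.10%), where 0.94% of all genes tested were. They were ADRB1, PLCD3, SHF and an immunoglobulin A heavy chain, LOC101107475. The call of LOC101107475, at a log2 fold change of 2.98, was kept in 6 of 14 leave-one-out fits and 6 of 13 alternatives, and without AFB1_CUR replicate 2 the value was -0.084. Its call was also lost without any one of the 4 AFB1 libraries and without CON replicate 2, 3 or 4. After Benjamini-Hochberg adjustment 0 members passed in edgeR, DESeq2 or limma, and the smallest adjusted p of a member in edgeR was 1.0. Before adjustment 6 members had a p under 0.05 in edgeR, as did 2.3% of all genes tested.

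ADRB1 was lower in AFB1_CUR, at 1.42 ± 0.385 FPKM (SD, n = 5) against 2.68 ± 1.31 (SD, n = 4). The log2 fold change was -0.97 (SE 0.33, edgeR unadjusted p = 0.0120), and the call was lost without AFB1 replicate 4 and in limma on log2(FPKM + 1). Against CON the AFB1_CUR libraries gave a log2 fold change of -0.06 (SE 0.32), which did not pass the test. PLCD3 was higher in AFB1_CUR, at 1.36, 3.14, 1.75, 2.08 and 2.41 FPKM against 0.709 to 1.78 in AFB1. Its log2 fold change was 0.66 (SE 0.25, edgeR unadjusted p = 0.0195). Without AFB1_CUR replicate 2 it was 0.54 and without AFB1 replicate 5 it was 0.48, and the call was lost in both, as it was in limma on log2(FPKM + 1) and with sample quality weights. PLCD1 was on the same side, with a log2 fold change of 0.28 that missed the fold threshold.

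The other members with a calcium role called in the first comparison were not called in the second. PTGFR had a log2 fold change of -0.48 (SE 0.26) and CHRM3 one of 0.42 (SE 0.25), and neither passed the test. LOC121817879 had 0.16 (SE 0.32). Only 1 of the 129 members had libraries that did not overlap between AFB1_CUR and AFB1, a share near the 0.682% of all genes tested. This was ADRA1B, the alpha-1B adrenergic receptor, named here after its values were seen. It had 3.35, 3.97, 3.38, 3.07 and 3.14 FPKM in AFB1_CUR and 2.58, 1.88, 1.98 and 2.51 in AFB1, with a log2 fold change of 0.52 (SE 0.25) that did not pass the test. SHF was higher in AFB1_CUR by 0.68 on the log2 scale (SE 0.26), a call lost without AFB1_CUR replicate 3 or 5 or AFB1 replicate 2 and in limma on log2(FPKM + 1), and with the liver-like library put back the value was -0.61.

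The third comparison set AFB1_CUR against CON. Of the 129 members 8 were called (6.20%), where 1.64% of all genes tested were. They were 2 members with a calcium role and 6 immunoglobulin heavy chains. Without AFB1_CUR replicate 2 the count was 1. The 2 with a calcium role became 1 without CON replicate 1 or 4 or AFB1_CUR replicate 2, and 4 without CON replicate 2, AFB1_CUR replicate 1 or 4 or AFB1 replicate 2. After Benjamini-Hochberg adjustment 0 members passed in edgeR, DESeq2 or limma, and the smallest adjusted p of a member in edgeR was 0.823. Before adjustment 12 members had a p under 0.05 in edgeR, as did 5.5% of all genes tested. No member had libraries without overlap between AFB1_CUR and CON, where 0.72% of all genes tested did.

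EDNRB, the endothelin B receptor, clears endothelin and mediates its natriuretic action in the collecting duct, and lies on chromosome 10 from 53622505 to 53652245. It had 4.86, 7.79, 5.65, 3.85 and 6.79 FPKM in CON, 10.6, 7.42, 3.80 and 6.43 in AFB1 and 7.68, 12.5, 7.80, 10.3 and 9.43 in AFB1_CUR. All AFB1_CUR libraries but replicate 1 lay above the highest CON library. The log2 fold change against CON was 0.65 (SE 0.22, edgeR unadjusted p = 0.0103). It was called in all 13 alternatives, and lost its call without CON replicate 4 or AFB1_CUR replicate 2. The endothelin A receptor EDNRA had 0.19 (SE 0.25). LOC121817879 was again lower than in CON, by a log2 fold change of -0.85 (SE 0.30, edgeR unadjusted p = 0.0134), which was lost without CON replicate 1, in limma on log2(FPKM + 1) and with the liver-like library put back. Since this comparison uses the same CON libraries as the first, the 2 values are not independent.

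A further 4 members with a calcium role had an unadjusted p under 0.05 without reaching the fold threshold. These were GNAQ at a log2 fold change of 0.32, the calcineurin subunit PPP3CA at 0.39, STIM2 at 0.38 and PHKG1 at -0.33. PPP3R1 was higher in AFB1_CUR than in AFB1 by 0.20 (SE 0.09, edgeR unadjusted p = 0.0458), again under the fold threshold. It had 24.1, 27.8, 23.6, 21.5 and 22.2 FPKM in AFB1_CUR and 18.7 to 22.1 in AFB1.

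**Figure D3:**
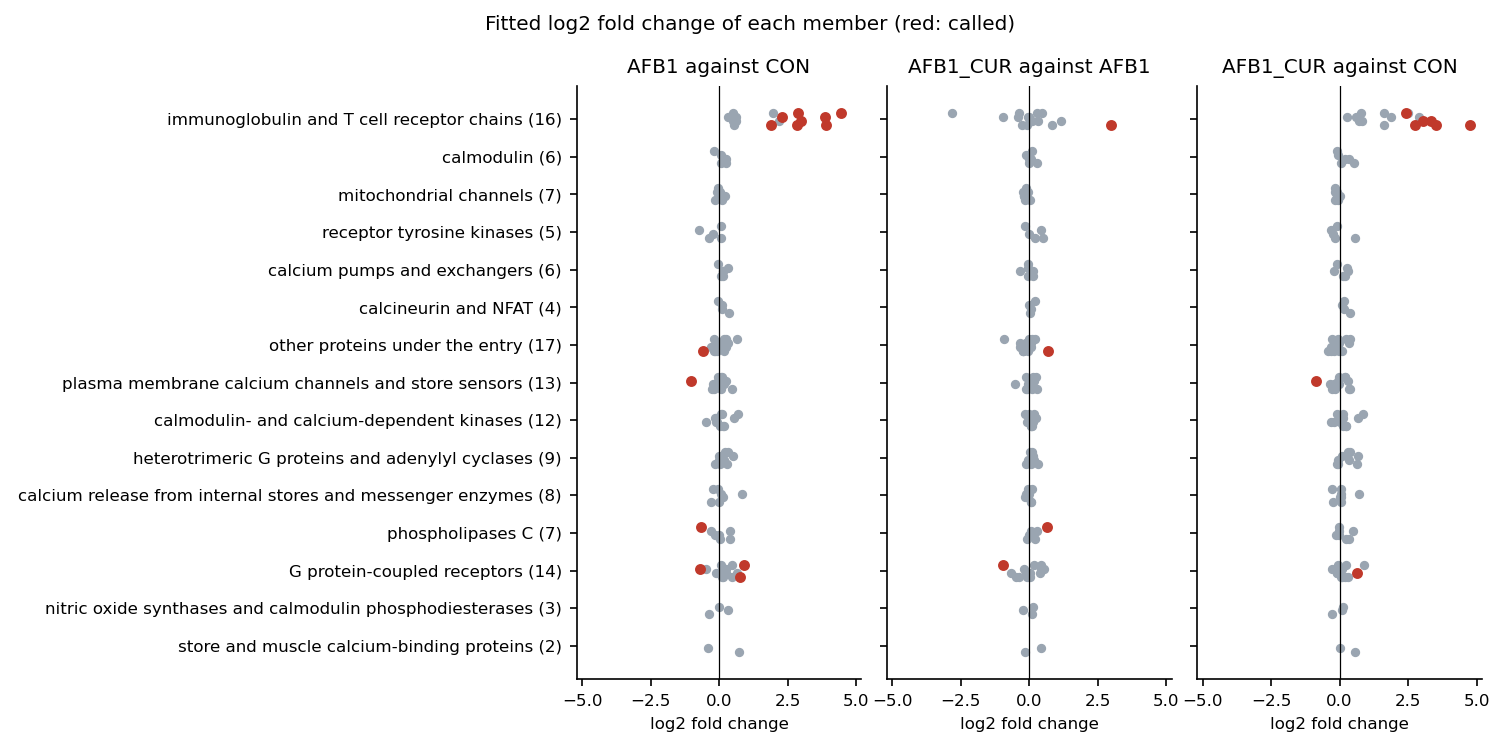
Fitted log2 fold change (x axis) of each of the 129 members in the 3 comparisons, by role (y axis, number of genes in brackets). Each point is 1 gene and red points were called. Members with a calcium role lie between -1.01 and 0.90 in all 3 panels, and the antigen receptor chains reach 4.44 between AFB1 and CON and 4.76 between AFB1_CUR and CON.

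Several members were highest in the libraries with high lymphocyte markers. Of the 96 members with a calcium role, 25 (26.0%) had their 2 highest values of the 14 libraries in AFB1 replicate 2 and AFB1_CUR replicate 2, as did 17.9% of all genes tested. These genes were picked after their values were seen. They include PTK2B, a calcium-activated tyrosine kinase, with 4.14 and 6.59 FPKM in the 2 libraries and 0.697 to 1.38 in the others. PRKCB, the protein kinase C of B cells and other leukocytes, had 4.73 and 5.89 there and 1.01 to 2.02 in the others. Both genes were thus separated by more than the whole range of the remaining libraries.

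Other genes known from leukocytes were also highest in these libraries. CXCR4 had 15.1 and 39.3 FPKM in these libraries and at most 8.99 in the others, and PLCG2, the phospholipase C of B cell receptor signaling, had 5.68 and 10.5 against at most 3.79. ATP2A3, the calcium pump of blood cells, had 15.1 and 19.3 against at most 9.97. None of these 5 genes was called in a comparison. The 25 members were not all genes known from leukocytes. PDGFRA had 17.9 and 23.4 FPKM against at most 13.6, EDNRA 2.59 and 2.93 against at most 1.99, and CALM2 69.9 and 84.2 against at most 64.9. The myeloid marker sum was 67.8 and 84.0 FPKM in the 2 libraries and 14.1 to 34.4 in the other 12, and the adipocyte marker sum was 63.6 in AFB1 replicate 2. The smooth muscle marker sum was 692 in AFB1_CUR replicate 2 and 221 to 516 in the other libraries. The adrenal marker sum was 20.8 in AFB1_CUR replicate 2. The proximal tubule marker sum was lowest in the same 2 libraries, at 2289 in AFB1 replicate 2 and 1724 in AFB1_CUR replicate 2, against 2998 to 5433 in the other 12. Their part in these levels was not tested.

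**Figure D4:**
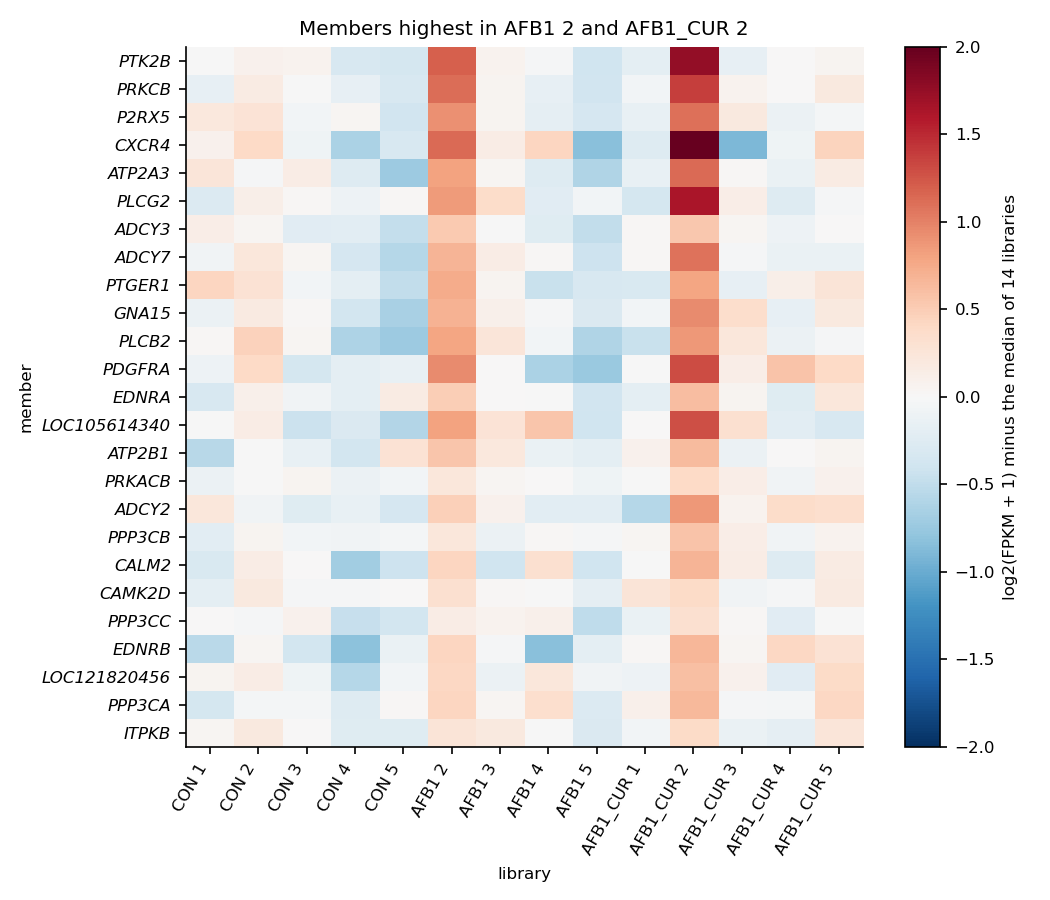
Heat map of the 25 members with a calcium role whose 2 highest libraries are AFB1 replicate 2 and AFB1_CUR replicate 2. Columns are the 14 libraries, rows are genes in falling order of the gap between these 2 libraries and the other 12, and the color gives log2(FPKM + 1) minus the gene's median over the 14 libraries. PTK2B, at 4.14 and 6.59 FPKM against at most 1.38, is the top row.

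Leaving out both of these libraries, a setting chosen after the data were seen, gave 8 called members with a calcium role between AFB1 and CON in place of 5, where 2.03% of all genes tested were called. ADRB1 (log2 fold change 1.03), PTGFR (0.78), CHRM3 (-0.71), PLCD3 (-0.67) and LOC121817879 (-1.19) were called again. AVPR1A at 0.95, ERBB3 at -0.83 and PVALB at 0.95 were called in addition. AVPR1A, the vasopressin receptor of vascular and mesangial cells, had 10.8 FPKM in AFB1 replicate 3 and 1.84 to 5.38 in the other 13 libraries, so this call leans on 1 library. Between AFB1_CUR and AFB1, where 1.69% of all genes tested were called, ADRB1 (-0.98), AVPR1A (-0.85) and PDGFRA (0.75) were, and PLCD3 was not. Between AFB1_CUR and CON, where 0.963% were called, EDNRB (0.59) and LOC121817879 (-0.75) were.

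The immunoglobulin chains gave the largest values among the members. Of the 12, 11 were heavy chain loci in a single stretch of chromosome 18, from 67575270 to 67880271, and 1 was a kappa light chain locus, LOC101110577, on chromosome 3. LOC101108781, described as an IgG1 constant region, had 217, 218, 189, 134 and 14.4 FPKM in CON. In AFB1 replicates 2 to 5 it had 3698, 131, 791 and 113, and in AFB1_CUR 137, 5231, 78.1, 476 and 133. Replicate 2 of both fed groups stood far above the rest and CON replicate 5 far below it. LOC101107738, an epsilon chain locus with a mean of 1.31 FPKM, overlaps LOC101108522, LOC101108781 and LOC101108817 on the same strand, so reads can be shared among these 4.

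Of the 16 antigen receptor chains 14 were highest of the 14 libraries in AFB1_CUR replicate 2 and 2 in AFB1 replicate 2, and 14 were lowest in CON replicate 5. Between AFB1 and CON 8 were called, all higher in AFB1, with log2 fold changes from 1.88 to 4.44 and SEs from 0.83 to 1.68. Between AFB1_CUR and CON 6 were called, with 2.43 to 4.76, and 3 of these were called in both. Without AFB1 replicate 2, 0 of the 16 were called between AFB1 and CON by edgeR's quasi-likelihood test, and without AFB1_CUR replicate 2, 0 were called between AFB1_CUR and CON. Leaving out any 1 CON library gave 2 to 4 calls between AFB1 and CON and 3 to 4 between AFB1_CUR and CON. Without AFB1 replicate 4 there were 4 in each. With both replicates 2 left out, none had an unadjusted p under 0.05 in any comparison. Limma on log2(FPKM + 1) called 0 of the 16 with all 14 libraries, with median log2 fold changes of 1.65 between AFB1 and CON and 1.33 between AFB1_CUR and CON, where edgeR gave 2.07 and 2.15. All 16 estimates were above 0 in both comparisons and both tools. In edgeR the median was 0.94 between AFB1 and CON without AFB1 replicate 2, and 0.45 between AFB1_CUR and CON without AFB1_CUR replicate 2, with 15 of 16 above 0 in each. Without both replicates 2 and CON replicate 5 the medians were 0.66 with 11 of 16 above 0 and 0.20 with 13, and with sample quality weights they were 0.69 with 15 and 0.36 with 14. The 4 T cell receptor chains were called in no comparison by edgeR, DESeq2 or limma, and none had an unadjusted p under 0.05. Their summed FPKM was 130.5 in AFB1 replicate 2 and 175 in AFB1_CUR replicate 2, against 13.4 to 68.6 in the other libraries. The lymphocyte markers were highest in the same 2 libraries and lowest in CON replicate 5, and their part in the immunoglobulin values was not tested.

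**Figure D5:**
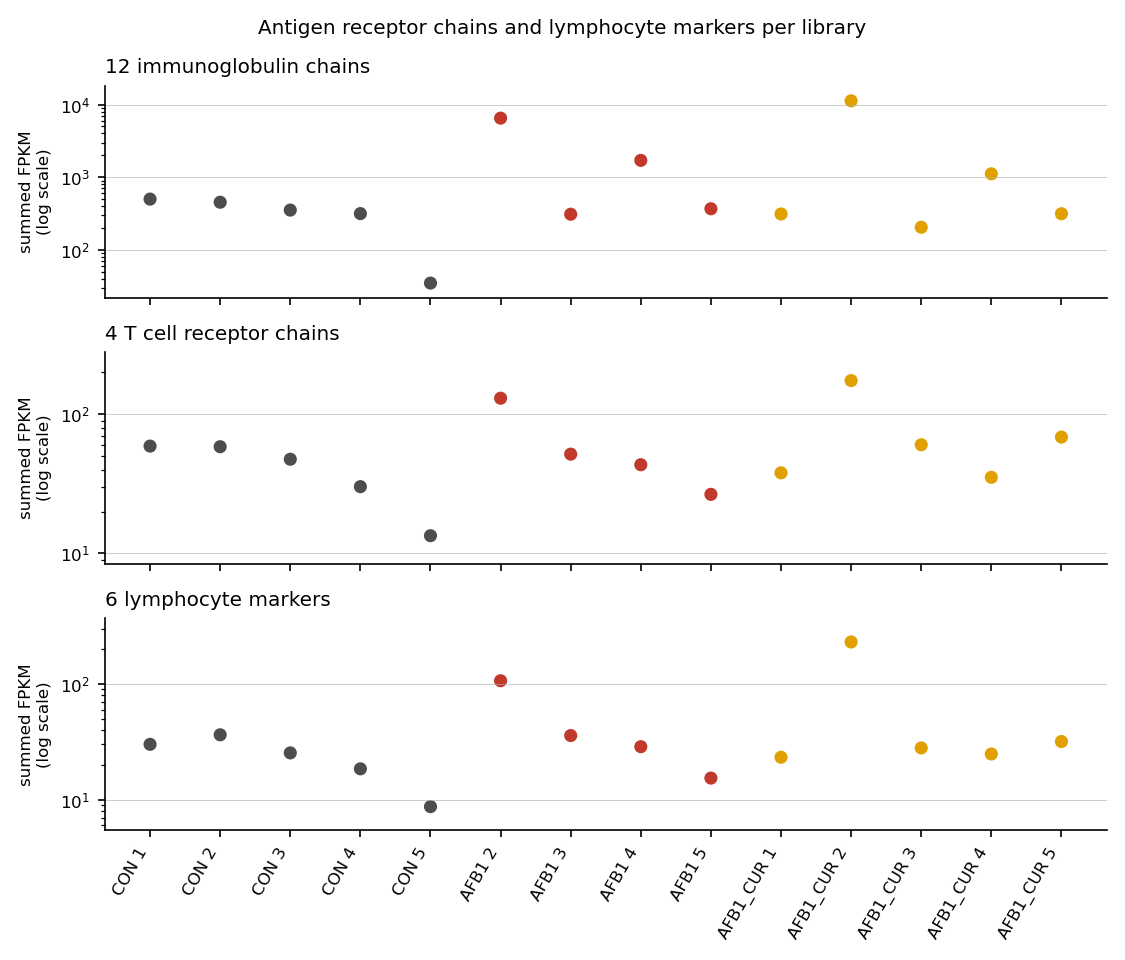
Summed FPKM (y axes, log scale) of 12 immunoglobulin chains, 4 T cell receptor chains and 6 lymphocyte markers in each of the 14 libraries (x axis; CON grey, AFB1 red, AFB1_CUR yellow, each labelled with its replicate number). Each point is 1 library. The immunoglobulin sum is 6510 in AFB1 replicate 2 and 11278 in AFB1_CUR replicate 2 and at most 1705 in the other libraries.

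The liver-like library changed the outcome of the comparisons when it was put back. With 15 libraries 9 members were called between AFB1 and CON, where 4.84% of all genes tested were, and 7 between AFB1_CUR and AFB1, where 3.98% were. Between AFB1_CUR and CON 4 were, where 0.993% of all genes tested were. ITPKA, an inositol trisphosphate kinase, then had a log2 fold change of 1.91 between AFB1 and CON, and SHB one of 0.98. In that library ITPKA had 23.2 FPKM against 1.16 to 3.25 in the other 14, and SHB had 13.4 against 3.42 to 6.44. Without it the log2 fold changes were -0.30 (SE 0.23) for ITPKA and 0.32 (SE 0.17) for SHB, and neither was called.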

How the data were processed

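Kidney RNA of 15 sheep was sequenced from poly(A) RNA with a stranded protocol as paired reads of 150 bases. The authors deposited read counts and FPKM values per gene. Per the submitters' processing notes the tools included cutadapt 1.9, HISAT2 2.2.1 and StringTie 2.1.6. The counting tool is not given in the sources used here. Gene positions equal those of ARS-UI_Ramb_v3.0 in RefSeq for nearly all genes.

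Genes that reached an FPKM of 1 in 5 or more libraries were kept (13193), and their deposited counts entered the quasi-likelihood test of edgeR 4.0.16 (TMM) under R 4.3.3. The 14 libraries of 3 groups shared 1 dispersion estimate, and AFB1 replicate 1 was left out. A call required a fold beyond 1.5 and an unadjusted p below 0.05. Benjamini-Hochberg adjustment ran over all genes tested. DESeq2 1.42.0 and limma 3.58.1 were alternatives. Each library is 1 sheep. Sheep were kept 2 to a pen, and which of those sequenced shared a pen is not given in the sources used here, so p-values measure only the spread between sheep.

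Members, roles and lists were chosen with earlier results of these data known. Named were all called members, the 2 highest of each role, the 5 of widest spread and the 3 of largest change among those called only with AFB1 replicate 1. Other genes are given as examples of their role and were chosen after their values were seen. A few genes that this rule names are not reported here.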

Additional observations from a re-analysis of the deposited data

Results flagged for a closer look

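The 46 named genes, some of them named for a call or for wide spread, gave 138 groups of 4 or 5 libraries. Of these groups, 23 held a library far from the others by Dixon's test. The genes were chosen in part for such values, so this count is not set against a chance rate. Among members with a calcium role the highest libraries that stood apart were AFB1_CUR replicate 1 for CHRM3 at 2.25 FPKM and for ERBB3 at 23.6, AFB1_CUR replicate 2 for CXCR4 at 39.3, AFB1_CUR replicate 3 for ATP2A2 at 24.7, AFB1_CUR replicate 5 for GNAS at 148.7 and CON replicate 2 for SLC8A1 at 25.7. AFB1 replicate 5 was low for PPP3CC at 4.87.

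The other 16 concerned immunoglobulin chains. In AFB1_CUR replicate 2 they were LOC101107475 at 779 FPKM, LOC101108522 at 91.5, LOC101108781 at 5231, LOC101108817 at 2952, LOC101110577 at 148, LOC101113211 at 394, LOC114109090 at 480.3, LOC114109091 at 254, LOC114109345 at 284, LOC121817058 at 170.3 and LOC132658103 at 488. In AFB1 replicate 2 they were LOC101108522 at 691, LOC114109091 at 95.7, LOC121817058 at 253 and LOC132658103 at 462. In CON replicate 2 LOC101108522 stood at 23.5.

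The liver-like AFB1 replicate 1, which entered no comparison, had 10 members above and 74 below each of the other 14 libraries.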

How the results depend on the processing

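The number of members called moved with the settings. Between AFB1 and CON the 14 calls became 9 with all 15 libraries, 1 with limma on log2(FPKM + 1), 4 with limma on log2(FPKM + 0.1), 8 with sample quality weights, 9 with a replicate block and 6 to 18 when 1 library was left out. Without replicate 2 of AFB1 and AFB1_CUR, chosen after the data were seen, there were 8, and without CON replicate 5 as well 6. The 5 calls with a calcium role became 1 with limma on log2(FPKM + 1), 8 without both replicates 2, 8 by unadjusted p alone and 4 to 9 with 1 library left out, 9 being without AFB1 replicate 5. Between AFB1_CUR and AFB1 the 4 calls became 7 with all 15 libraries and 0 with limma on log2(FPKM + 1), and 3 to 4 with 1 library left out. The 2 with a calcium role became 5, 0, 4 by unadjusted p alone, and 1 to 4 with 1 library left out. Between AFB1_CUR and CON the 8 calls became 4 with all 15 libraries, 1 and 2 with limma at the pseudocounts of 1 and 0.1, 2 with sample quality weights, 5 with a replicate block, 2 without both replicates 2, 4 without CON replicate 5 as well, and 1 to 12 with 1 library left out, 1 being without AFB1_CUR replicate 2. The 2 with a calcium role became 1 with all 15 libraries, 1 with limma on log2(FPKM + 1), 4 with a replicate block, 6 by unadjusted p alone, and 1 to 4 with 1 library left out. Whether replicate numbers pair the samples is not settled here. Deviations of same-numbered libraries correlated between -0.31 and 0.60 over 13 pairs, 7 of them above 0.1. Among replicates 2 the correlation was 0.40 for CON with AFB1, 0.44 for CON with AFB1_CUR and 0.60 for AFB1 with AFB1_CUR. Libraries of unlike number were not compared. With the block ADRB1 had a log2 fold change of 0.82 between AFB1 and CON, with an unadjusted p above the threshold, and was not called, and 3 antigen receptor chains were called between AFB1 and CON in place of 8 and 1 between AFB1_CUR and CON in place of 6.

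The sign turned for ITPKA between AFB1 and CON (1.91) and between AFB1_CUR and AFB1 (-2.14) and for SHF (0.69 and -0.61) with all 15 libraries, for LOC114109091 between AFB1 and CON (-0.88) and LOC101107475 between AFB1_CUR and AFB1 (-0.14) with sample quality weights, for LOC101107475 without AFB1_CUR replicate 2 (-0.084, its range with 1 library left out being -0.084 to 3.33), and for LOC114109090 between AFB1_CUR and CON (-0.13) without the 3 libraries. The cause was not tested.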
